A study of Mus musculus with 29 samples.

Results

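Spi1, Csf1, Runx1, Gata1, Gata2, Cebpa, Tal1 and Lmo2 are 8 genes of blood formation that are known to interact with Gfi1, through their proteins or as its targets. They were examined in 9 ChIP-seq peak lists of Atoh1, Pou4f3 and Gfi1, out of 22350 protein-coding genes on chromosomes 1 to 19 and X. A summit, the position of highest signal in a peak, was assigned to a gene when it lay in the gene body or within 50 kb of it. The authors' kept summits placed 109 of 175162 summits in the 8 windows, and 3 of these came from the Gfi1 list. The Gfi1 summits lay past the 3′ end of Csf1, within Runx1 and past the 3′ end of Gata1. The Csf1 site was shared with Atoh1, and the other 2 had no Atoh1 or Pou4f3 summit of the same line within the 300 bp window. No kept Gfi1 summit lay in the windows of Spi1, Gata2, Cebpa, Tal1 or Lmo2.

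Gfi1 is a zinc-finger transcriptional repressor that acts in blood stem cells and in granulocyte differentiation, and it is also needed for inner ear hair cells (HCs). In blood it recruits histone demethylase and deacetylase complexes to sites with an AATC core, and it restrains the macrophage programme driven by PU.1, the product of Spi1. Runx1, Gata2, Tal1 and Lmo2 belong to the network that forms and maintains blood stem and progenitor cells, Gata1 drives red cell and megakaryocyte differentiation, and Cebpa drives granulocyte differentiation. Atoh1 is a basic helix-loop-helix factor that binds E-boxes, and Pou4f3 is a POU homeodomain factor that binds AT-rich sites. Both are expressed in developing HCs and neither is a blood factor.

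The factors were expressed from a doxycycline-inducible cassette in lines derived from 1 parental mouse embryonic stem cell (ESC) line, A2Lox, and all lines were grown as embryoid bodies (EBs), aggregates of differentiating ESCs. Doxycycline (2 µg/ml) was present for 48 h before the EBs were harvested at day 6, in every line, so no list shows binding without induction. The lines were iAtoh1 (Atoh1), iPou4f3 (Pou4f3), iG+A (Gfi1 and Atoh1), iG+P (Gfi1 and Pou4f3), iP+A (Pou4f3 and Atoh1) and iGPA (Gfi1, Pou4f3 and Atoh1). Of 29 libraries, 17 were ChIP libraries, with 2 per line and factor except 1 for Gfi1, and 12 were inputs. Atoh1 was precipitated through a FLAG tag and Pou4f3 through a MYC tag, while Gfi1 was precipitated with an antibody to the untagged protein, in iGPA. Gfi1 binding in the other lines carrying it was not measured, and "alone" below means alone in iGPA.

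The peaks were called on merged replicates, so the lists carry no spread between replicates and no p-value was computed. The lists differed in length, from 15568 kept summits (iAtoh1 Atoh1) to 32632 (iG+P Pou4f3), with 3012 for Gfi1. The usual local background, which stands in for depth, was lower for Gfi1 (3.55 fragments) than for the other 8 lists (5.87 to 8.3), and the weakest kept Gfi1 peak had a pileup of 14 fragments. A gene without a Gfi1 summit therefore had none detectable at this depth and with this antibody. The paper describes a relatively low enrichment over input for the antibody, and a single usable library. Fold enrichment, the ratio of the pileup to its local background with the same constant added to both, is compared here within a list. Between lists it is given side by side, and the highest fold in any list was used only to choose which site of a gene to name. No expression data were used, so a summit says where a factor was found and not which gene it acts on.

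The sequences around the 3 Gfi1 summits are shown first because they differ in kind. Each is 250 bases of the plus strand in mm9 coordinates (assembly NCBIM37), centred on the summit. Capitals mark matches, on either strand, to any of the patterns searched. The Gfi1 pattern was AATCACAGC or AATCACTGC, and its first 6 letters, AATCAC, were taken as the Gfi1 core. The E-box was CAGATG, or the palindrome CAGCTG. The Pou4f pattern was ATAATTAAT with at most 1 mismatch. The GATA pattern was AGATAA, or the same word with another first letter, TGATAA. Every Gfi1 pattern also holds the core.
Csf1 Gfi1 summit, chr3:107543543-107543792: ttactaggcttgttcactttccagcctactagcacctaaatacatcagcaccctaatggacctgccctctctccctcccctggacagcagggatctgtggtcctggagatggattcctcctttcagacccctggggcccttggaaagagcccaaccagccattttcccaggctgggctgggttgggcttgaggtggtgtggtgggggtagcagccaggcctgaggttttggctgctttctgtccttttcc
Runx1 Gfi1 summit, chr16:92714584-92714833: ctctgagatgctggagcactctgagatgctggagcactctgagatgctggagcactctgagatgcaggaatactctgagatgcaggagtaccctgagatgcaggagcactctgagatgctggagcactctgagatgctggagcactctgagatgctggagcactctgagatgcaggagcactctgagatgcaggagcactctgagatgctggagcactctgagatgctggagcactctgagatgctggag
Gata1 Gfi1 summit, chrX:7525257-7525506: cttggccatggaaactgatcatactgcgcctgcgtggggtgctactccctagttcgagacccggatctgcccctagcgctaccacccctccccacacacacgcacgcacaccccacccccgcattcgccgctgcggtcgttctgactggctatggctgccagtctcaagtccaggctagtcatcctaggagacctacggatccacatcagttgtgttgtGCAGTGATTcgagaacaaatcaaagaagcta
The Csf1 window held none of the patterns. The Runx1 window was a tandem repeat with no match. The Gata1 window held 1 Gfi1 pattern, AATCACTGC on the minus strand, centred 98 bp from the summit. Among all 3012 kept Gfi1 summits, the Gfi1 pattern was found at 7.01% (exact Clopper-Pearson 95% interval 6.12 to 7.98), the core at 24.3% (22.8 to 25.9) and the E-box at 39.1% (37.4 to 40.9). A match is a description of the letters and was not tested as a binding site.

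Csf1 encodes the macrophage colony-stimulating factor, the ligand for growth and survival of macrophages. Its gene lies on chromosome 3 at 107543966 to 107563387, minus strand, and the Gfi1 summit at 107543668 was intergenic, 298 bp past the annotated 3′ end and 19.7 kb from the gene's start. The fold enrichment was 4.18, with a −log10 p of 8.09 and a derived pileup of 18 fragments over a background of 3.55, and 37.6% of the Gfi1 summits had a lower fold. Atoh1 was called at the same place in iGPA, 32 bp away with fold 3.55, and in iAtoh1, 29 bp away with fold 3.3. Another Atoh1 peak, in iG+A with fold 3.34, lay 2 bp from the Gfi1 summit but was left out of the authors' summit list. In iP+A the nearest Atoh1 summit was 35.8 kb away, and the nearest Pou4f3 summits lay 17.5 to 17.6 kb away in all 4 Pou4f3 lists. The site therefore carried Atoh1 in iAtoh1, a line without Gfi1 in its cassette. The E-box was found in the 250 bp around the iAtoh1 summit but not around the iGPA Atoh1 summit, and neither window had a Gfi1 core. That E-box lay 114 bp from the iAtoh1 summit, near the edge of its window. The iGPA window, centred on another position of the same site, ended before it. Over the whole list, 27.0% of the Gfi1 summits shared a window with iGPA Atoh1 alone, 16.4% with Atoh1 and Pou4f3, and 7.27% with Pou4f3 alone.

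Runx1 encodes the DNA-binding subunit of core binding factor, which is needed for blood stem cells to emerge from endothelium. The gene spans 225 kb on chromosome 16 (92601712 to 92826311, minus strand), and its window of 325 kb was longer than that of 96.4% of protein-coding genes. The Gfi1 summit at 92714709 was intronic, 17136 bp upstream of the nearest annotated Runx1 start. It had fold 7.05, −log10 p 23.6 and a derived pileup of 40 fragments over a background of 4.82, which is 1.36 times the usual background of the list. The summit lay in a tandem repeat with a unit of 18 bp, where 95.7% of the positions in the 250 bp window equalled the position 1 unit further on. The repeat ran from 92714375 to 92714888, 514 bp or 28.6 units, and held 442 of the 538 bp of the called peak. No called peak of the other 8 lists touched it. Repeats of this kind, with a unit of up to 60 bp, held 3.02% (2.44 to 3.7) of all Gfi1 summits, against 0.443% to 1.89% in the other lists. Among Gfi1 summits that were alone they held 4.17% (3.21 to 5.32), and among those shared with Atoh1 or Pou4f3 they held 1.9% (1.28 to 2.72). The part of the repeat in the Gfi1 signal at Runx1 was not tested.

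The nearest iGPA partners of the Runx1 Gfi1 summit were a Pou4f3 summit 883 bp away with fold 5.68 and an Atoh1 summit 907 bp away with fold 2.83. Both lay outside the repeat, together with an iG+P Pou4f3 summit 873 bp away with fold 2.96, and their windows held an E-box and a Pou4f pattern. The Runx1 summit therefore counted as alone with 300 bp windows and as shared with both factors with 1000 bp windows.

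Gata1 encodes the GATA factor of red cells and megakaryocytes. Its gene lies on chromosome X at 7536386 to 7555197, minus strand, and the Gfi1 summit at 7525382 was 11004 bp past its 3′ end. The fold was 6.82, with −log10 p 18.4 and a derived pileup of 30 fragments over a background of 3.55, higher than 86.1% of the list. This was the only kept or called peak of any of the 9 lists in the Gata1 window. The nearest summit of another list was an iGPA Atoh1 summit 48.3 kb away, and the nearest iGPA Pou4f3 summit was 70.1 kb away. The summit was intergenic and 367 bp from an annotated start of Hdac6, a cytoplasmic deacetylase gene, while the nearest start of Gata1 was 15910 bp away. It lay in the windows of 8 protein-coding genes, including Hdac6, Eras and Pcsk1n, and its nearest annotated start was that of Hdac6. A kept Gfi1 summit with no summit of the other 8 lists was found for 33 protein-coding genes, 0.148% of all.

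**Figure D1:**
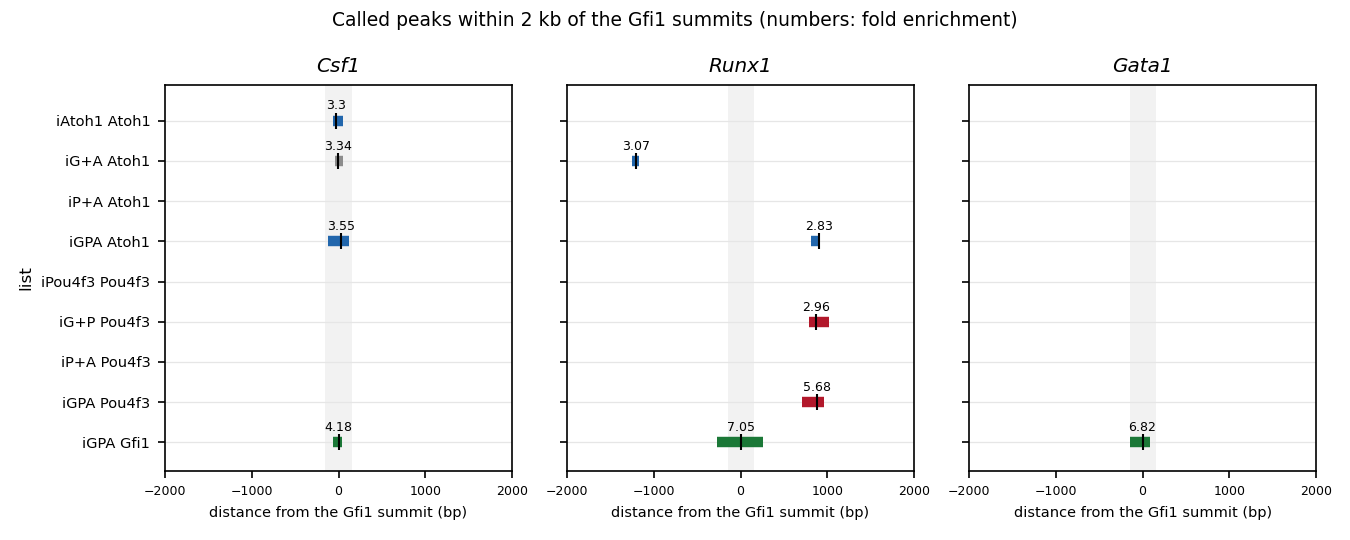
Called peaks of the 9 lists (rows) within 2 kb of the Gfi1 summits at Csf1, Runx1 and Gata1, by distance from the Gfi1 summit in bp in the direction of the gene; bars are peak intervals, ticks are summits, numbers are fold enrichment, a grey bar is a peak left out of the summit list, and the shaded band is the 300 bp window. Atoh1 peaks lie on the Gfi1 summit at Csf1, about 0.9 kb to one side at Runx1 in iGPA, and none is seen at Gata1.

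A Gfi1 summit was found for 3 of 8 regulators, and for 5193 of 22350 protein-coding genes, 23.2%. With 8 genes a share of 3 is not set apart from that background. Gfi1 summits that were alone made up 49.3% of the list and were found at 14.1% of protein-coding genes, and those shared with iGPA Atoh1 alone were found at 7.35%. Of the regulators, 2 had a lone summit and 1 a summit shared with Atoh1. The share of genes with a Gfi1 summit also moved with the length of the window, from 14.8% in the shortest of 5 length classes to 28.2% in the longest. Csf1 and Gata1 lay in the middle class, at 24.9%, and Runx1 in the longest. The Gfi1 summits in the regulator windows made up 0.0996% of the list (0.0205 to 0.291), or 2.61 per Mb of window against 1.58 per Mb over the windows of all protein-coding genes. The interval covers counting error only.

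For the regulators without a kept Gfi1 summit, the nearest was 56.6 kb from the gene body at Tal1, 119 kb at Gata2, 121 kb at Spi1, 159 kb at Lmo2 and 306 kb at Cebpa. The summit upstream of Tal1 had fold 9.46 and was alone, and it lay 269 bp from a start of Stil, the neighbouring centriole gene. It enters the Tal1 window when the flank is 100 kb, where 4 of 8 regulators and 34.2% of protein-coding genes had a Gfi1 summit. With a flank of 10 kb, Csf1 and Runx1 remained, 2 of 8 regulators beside 11.5% of genes.

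**Figure D2:**
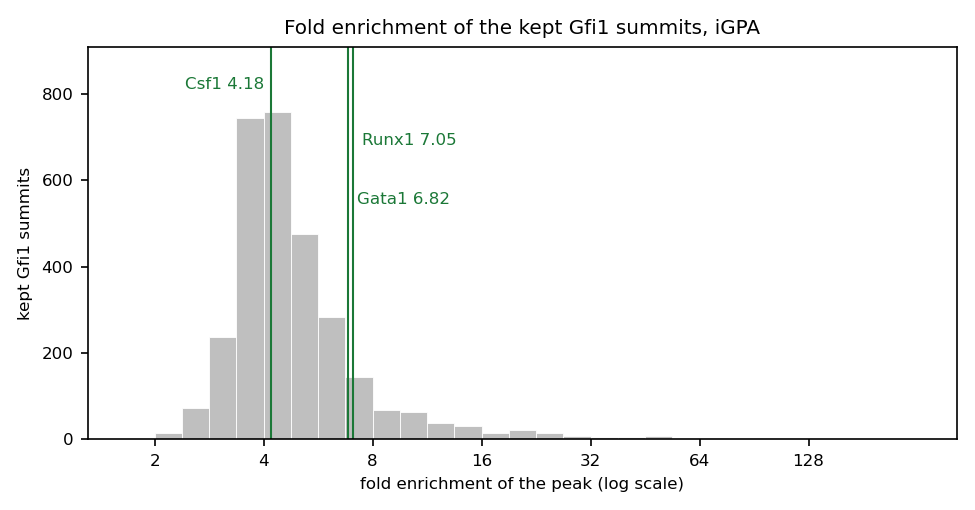
Number of kept Gfi1 summits (y axis) by fold enrichment (x axis, log scale) in iGPA, with green lines at the summits of Csf1 (4.18), Gata1 (6.82) and Runx1 (7.05). The Csf1 summit sits near the list's median of 4.4, and the others are in its upper part.

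Atoh1 and Pou4f3 were found at the blood regulators more often than Gfi1. Atoh1 summits lay at 7 of 8 regulators in iGPA (72.2% of all protein-coding genes), 6 in iP+A (62.7%), 7 in iG+A (65.8%) and 5 in iAtoh1 (53.1%). Pou4f3 summits lay at 7 regulators in iG+P (76.7% of all genes), 6 in iPou4f3 (72.8%), 5 in iGPA (63.2%) and 4 in iP+A (58.8%). Gata1 was the only regulator without a kept Atoh1 or Pou4f3 summit in any list, and Csf1 was the only one with a summit in all 9. These counts lay near the background of their lists, and nothing particular to the regulators is read from them.

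**Figure D3:**
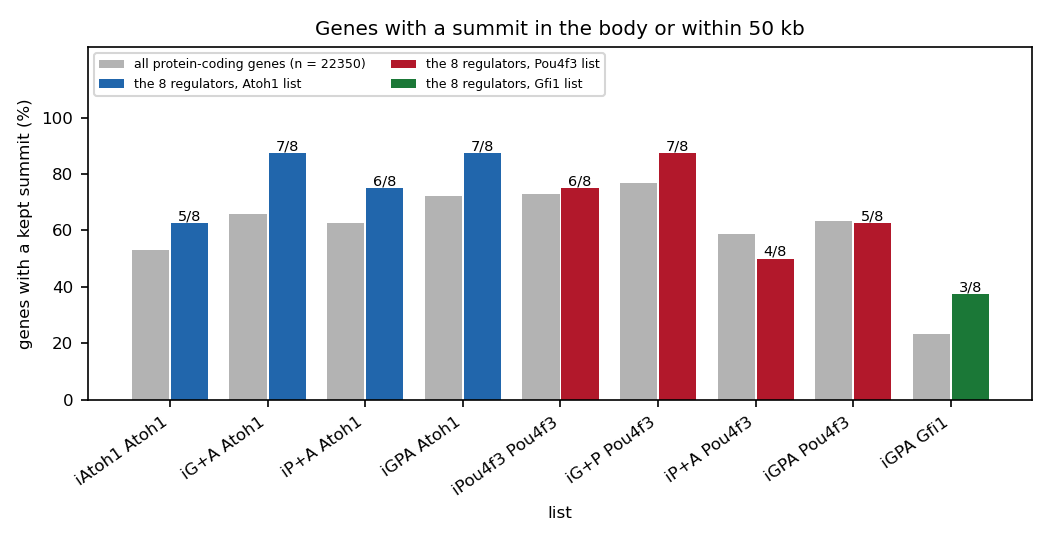
Percent of genes with a kept summit in the gene body or within 50 kb (y axis) for each of the 9 lists; grey bars are all 22350 protein-coding genes and coloured bars are the 8 regulators, with their number above. The regulators' bars lie near the grey ones, from 3 of 8 beside 23.2% for Gfi1 to 7 of 8 beside 76.7% for iG+P Pou4f3.

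The number of summits in the 8 windows varied more between lists than the number of genes. Atoh1 had 23 summits in iGPA, 9 in iP+A, 16 in iG+A and 7 in iAtoh1, and Pou4f3 had 17 in iG+P, 14 in iGPA, 12 in iPou4f3 and 8 in iP+A. Where a line with Gfi1 was set beside the line that lacked only Gfi1, it had more summits in all 4 cases. With peaks of a −log10 p of at least 10 this turned for iG+P, which had 3 summits beside 4 in iPou4f3, and it held in the other 3 cases. The ratio was 2.29 for iG+A over iAtoh1 and 2.56 for iGPA over iP+A in the Atoh1 lists, where the whole lists gave 1.32 and 1.38. For Pou4f3 it was 1.42 for iG+P over iPou4f3 and 1.75 for iGPA over iP+A, where the whole lists gave 1.45 and 1.1. As a share of the list, the regulators held 0.0877% of the iGPA Atoh1 summits (0.0556 to 0.132) and 0.0475% of the iP+A Atoh1 summits (0.0217 to 0.0901). The shares were 0.078% (0.0446 to 0.127) in iG+A and 0.045% (0.0181 to 0.0926) in iAtoh1. These intervals overlap, and whether the regulators differ from the rest of the list in this respect was not tested. Per Mb of window, the regulators held 20.0 summits of iGPA Atoh1 against 13.7 over all protein-coding windows, and 7.82 against 9.56 in iP+A. The Atoh1 values were 13.9 against 10.7 in iG+A and 6.08 against 7.87 in iAtoh1. For Pou4f3 they were 12.2 against 8.78 in iGPA and 6.95 against 8.2 in iP+A. Both iG+P (14.8 against 15.8) and iPou4f3 (10.4 against 11.2) lay below their Pou4f3 background.

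**Figure D4:**
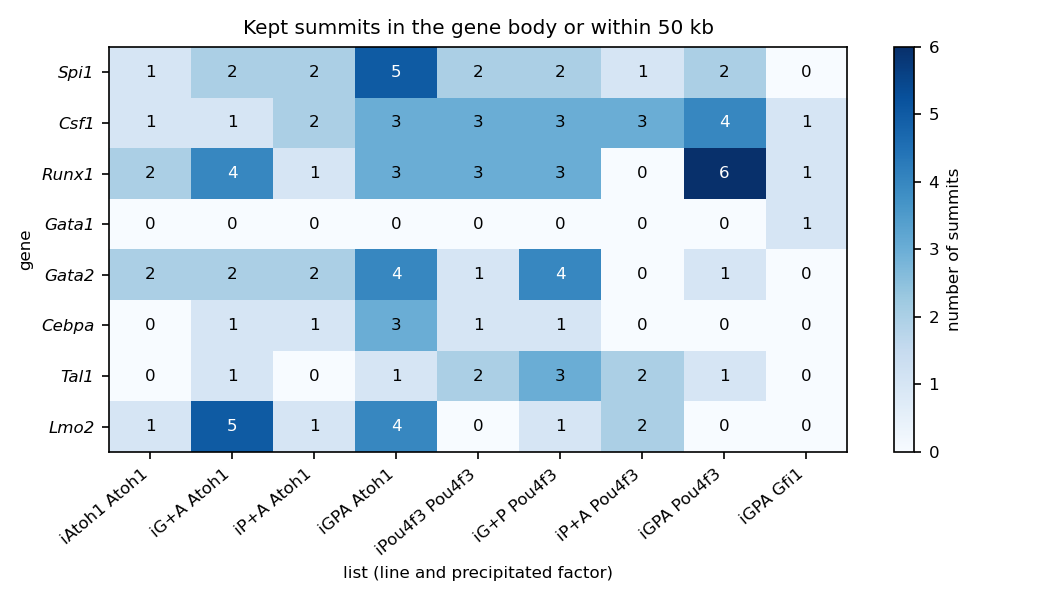
Number of kept summits in the body or within 50 kb of each of the 8 genes (rows) in each of the 9 lists (columns); darker blue is more. Gata1 has 1 summit, of Gfi1, and the highest cell is 6 for Runx1 in the iGPA Pou4f3 list.

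Of the Atoh1 summits at the regulators in iG+A, 5 of 16 shared a 300 bp window with an iAtoh1 summit, and over the whole iG+A list 39.9% did. In iGPA, 7 of 23 shared a window with an iP+A Atoh1 summit, where the whole list gave 41.9%. For Pou4f3, 3 of 14 in iGPA were shared with iP+A and 7 of 17 in iG+P with iPou4f3, where the lists gave 48.6% and 43.1%. Seen from the lists without Gfi1, 5 of 7 iAtoh1 summits shared a window with iG+A (52.2% of the whole list) and 7 of 9 iP+A Atoh1 summits with iGPA (57.8%). For Pou4f3, 7 of 12 iPou4f3 summits shared one with iG+P (62.0% of the whole list) and 3 of 8 iP+A summits with iGPA (53.4%).

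When the windows of all lists were joined, the 109 summits formed 49 sites. Of these, 19 carried Atoh1 only, 19 Pou4f3 only and 8 Atoh1 and Pou4f3, in the same or different lines. Over the 78408 sites of the whole series these classes held 37.5%, 41.8% and 16.9%. Gfi1 added 2 sites of its own and shared 1 with Atoh1, classes that held 1.17% and 0.81% of the series. A single list accounted for 21 sites (46.9% in the series), and 25 were found in 2 to 4 lists (46.5%). The other 3 sites, at Spi1, Gata2 and Lmo2, were found in 5 or more lists, where over the whole series 6.67% of sites were. Within iGPA, 4 of 23 Atoh1 summits at the regulators shared a window with Pou4f3, and over the list 15.3% did. The regulators differed in how many sites they held, from 12 at Runx1, 9 at Csf1, 7 at Gata2 and 7 at Lmo2 to 5 at Spi1, 4 at Cebpa, 4 at Tal1 and 1 at Gata1.

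**Figure D5:**
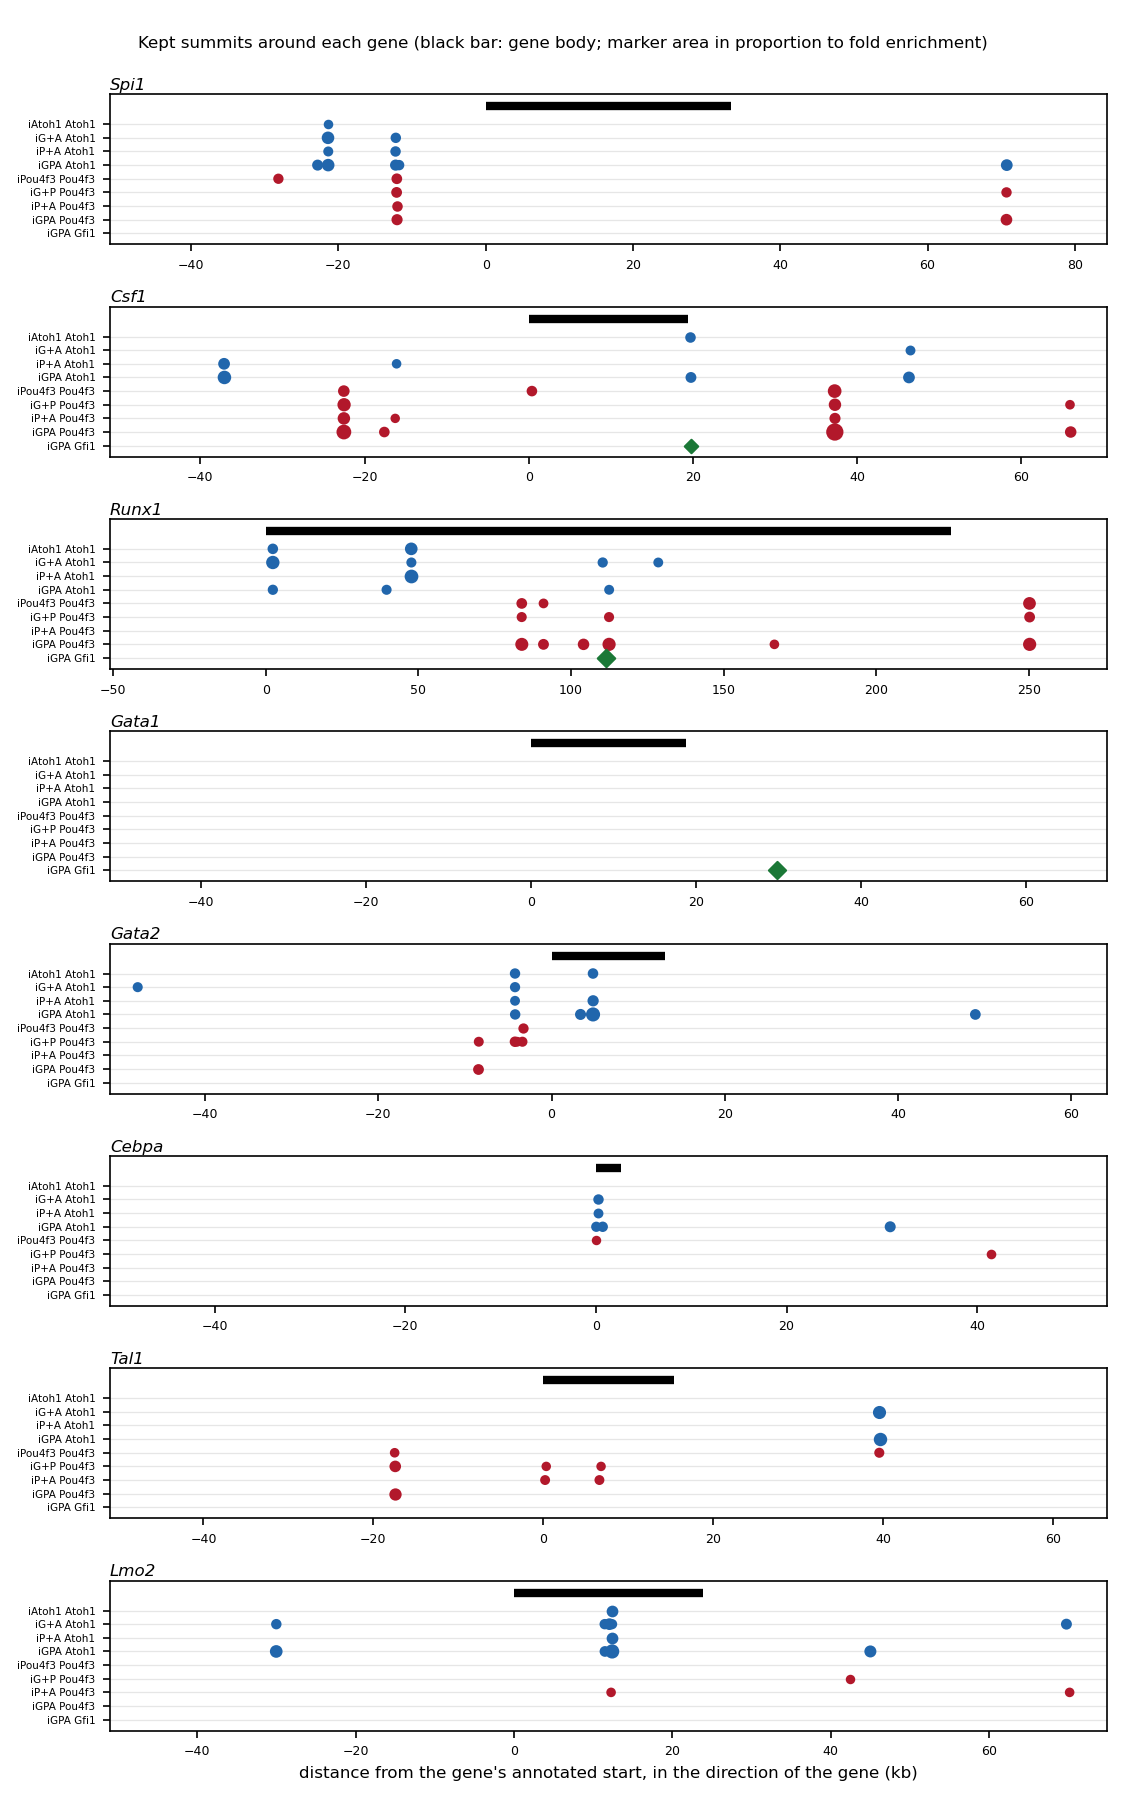
Kept summits of the 9 lists (rows in each panel) by distance in kb from the annotated start of each gene, in the direction of the gene; the black bar is the gene body, blue is Atoh1, red is Pou4f3, green diamonds are Gfi1, and the area of a marker is in proportion to its fold enrichment. Shared positions stack vertically, as at 12.1 kb upstream of Spi1 and 37.3 kb downstream of the start of Csf1.

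Spi1 (Sfpi1 in the annotation) encodes PU.1, the ETS factor of macrophages and B cells that Gfi1 is known to restrain. Its window (gene on chromosome 2 at 90922547 to 90955913, plus strand) held no Gfi1 summit but the site found in the most lists. That site lay 12.1 kb upstream and was called in 7 lists, as Atoh1 in iG+A (fold 3.2), iP+A (3.23) and iGPA (3.81) and as Pou4f3 in iGPA (3.79), iG+P (3.5), iPou4f3 (3.42) and iP+A (3.27). It lay 5 bp at its closest from an annotated start of Slc39a13, a zinc transporter gene. None of its 4 Pou4f3 windows held a Pou4f pattern. Their GC content was 72.4% to 77.2%, where the medians of the Pou4f3 lists were 42.4% to 44%. The local background at the iPou4f3 summit was 1.76 times the usual one. The 30 bases around the E-box nearest to the iGPA Atoh1 summit are shown, and each of the 3 Atoh1 lists had a summit within 27 bp of it.
Spi1 site 12.1 kb upstream, chr2:90910328-90910357: tggcagcggcagCAGATGcagcgctccggg
Atoh1 was found in all 4 of its lists at 21.4 kb upstream, in an intron of Psmc3, with fold 5.07 in iG+A, 5.05 in iGPA, 2.9 in iP+A and 2.57 in iAtoh1. All 4 of these windows held an E-box and a GATA pattern, and 17.5% to 22.2% of all summits in the Atoh1 lists had a GATA pattern. A site at 70.7 kb downstream of the start, in an intron of Madd, was shared by Atoh1 and Pou4f3 in iGPA (4.31 and 4.22) and by Pou4f3 in iG+P (3.17).

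At Csf1, the sites with the highest fold were of Pou4f3. At 37.3 kb from the gene's start, Pou4f3 was called with fold 10.6 in iGPA, 6.18 in iPou4f3, 4.93 in iG+P and 3.74 in iP+A. The iGPA fold was higher than that of 93.8% of its list. At 22.5 kb upstream Pou4f3 had fold 7.43 in iGPA, 4.16 in iPou4f3, 4.98 in iP+A and 5.8 in iG+P. Neither site had an Atoh1 or Gfi1 summit, and the Pou4f pattern was found in all 4 windows of the first and in none of the second. The sequence at the first of these is shown, and the Pou4f patterns that lie at the summit, ATAAATAAT and ATAATGAAT, overlap.
Csf1 site 37.3 kb from the start, chr3:107525988-107526237: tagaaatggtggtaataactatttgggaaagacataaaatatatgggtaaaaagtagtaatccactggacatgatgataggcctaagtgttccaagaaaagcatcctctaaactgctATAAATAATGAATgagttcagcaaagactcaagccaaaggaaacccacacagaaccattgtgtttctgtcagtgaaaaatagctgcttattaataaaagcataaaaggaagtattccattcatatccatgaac
Atoh1 was called 37.1 kb upstream in iP+A (4.3) and iGPA (6.03), lines that share Pou4f3, and these windows held an E-box and a Pou4f pattern. No Pou4f3 list had a summit at this site. The Pou4f pattern was found at 10.4% of all iP+A Atoh1 summits and 9.29% of all iGPA Atoh1 summits. Near the promoter, Csf1 had 1 summit, of Pou4f3 in iPou4f3, 134 bp from an annotated start with fold 3.33.

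Of the 12 Runx1 sites, 5 carried Atoh1 only, 5 Pou4f3 only, 1 both factors and 1 Gfi1 only. The site with both was the one about 0.9 kb from the Gfi1 summit. Atoh1 was called 2.33 kb from the gene's start in iAtoh1 (3.3), iG+A (5.87) and iGPA (3.08), and 47.7 kb from it in iAtoh1 (5.13), iG+A (2.94) and iP+A (6.24). The E-box was found at all 6 of these summits. Pou4f3 was called 83.9 kb from the start in iPou4f3 (3.45), iG+P (2.96) and iGPA (5.53), and past the 3′ end at 250 kb in the same lines (5.23, 3.5 and 5.68). No Pou4f3 summit was kept at Runx1 in iP+A, and iGPA had 6. One Atoh1 summit, in iG+A with fold 2.8, lay 137 bp from an internal Runx1 start.

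Gata2 encodes the GATA factor of blood stem and progenitor cells, and Lmo2 encodes a LIM-only adaptor that joins GATA and Tal1 proteins on DNA without binding it. At Gata2 the site found in most lists lay 4.22 kb upstream, with Atoh1 fold 3.21 in iGPA, 3.18 in iAtoh1, 2.8 in iP+A and 3.07 in iG+A, and Pou4f3 fold 3.28 in iG+P. The 250 bases around its iG+P Pou4f3 summit with the highest fold there are shown, and they hold no match to any pattern searched. A second iG+P Pou4f3 summit of the same joined site, with fold 2.74, had an E-box in its window. E-box words other than CAGATG and CAGCTG were not searched.
Gata2 site 4.22 kb upstream, chr6:88139525-88139774: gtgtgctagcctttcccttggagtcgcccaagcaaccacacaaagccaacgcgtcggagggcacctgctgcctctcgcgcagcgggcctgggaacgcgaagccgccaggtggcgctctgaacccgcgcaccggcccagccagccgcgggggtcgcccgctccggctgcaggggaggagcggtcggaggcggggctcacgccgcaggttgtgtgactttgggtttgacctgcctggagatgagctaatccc
A second Gata2 site, 4.78 kb into the gene and 5 to 19 bp from an annotated start, carried Atoh1 with fold 3.3 in iAtoh1, 3.87 in iP+A and 6.65 in iGPA, each with an E-box. At Lmo2 the site with the highest fold lay 12.4 kb into the gene, beside annotated starts, and carried Atoh1 with fold 6.77 in iGPA, 4.3 in iP+A, 4.28 in iAtoh1 and 3.07 in iG+A. A second iG+A summit of the same joined site, with fold 4.27, lay 12.1 kb into the gene. Pou4f3 was called there in iP+A with fold 2.6. The 30 bases at the iGPA Atoh1 summit hold the E-box.
Lmo2 site 12.4 kb into the gene, chr2:103810530-103810559: cctgagcagcggCAGCTGtcgcagccaccg
Atoh1 was also called 44 to 73 bp from another Lmo2 start in iGPA (3.45) and iG+A (3.2). At 30.0 kb upstream of Lmo2, Atoh1 was called in iG+A (3.2) and iGPA (5.17), lines that carry Gfi1, and the Gfi1 list had no summit there.

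Tal1 encodes a basic helix-loop-helix factor that pairs with E proteins, as Atoh1 does, and binds E-boxes beside GATA sites in blood cells. Its strongest site lay 39.5 kb from the gene's start, past the 3′ end, with Atoh1 fold 5.61 in iG+A and 5.91 in iGPA and Pou4f3 fold 2.95 in iPou4f3. An iP+A Atoh1 peak there, with fold 3.76, was called but left out of the summit list. An E-box, CAGCTG, lay 1 bp from the iGPA Atoh1 summit and 5 bases after a GATA pattern, TGATAA. The sequence was chosen after its values were seen, for this pair of words. Over the iGPA Atoh1 list, 72.9% of summits had an E-box and 17.5% a GATA pattern, and the share with both was not counted. This summit lay 5057 bp from a start of Pdzk1ip1 and 36481 bp from the nearest Tal1 start.
Tal1 site 39.5 kb from the start, chr4:114768469-114768718: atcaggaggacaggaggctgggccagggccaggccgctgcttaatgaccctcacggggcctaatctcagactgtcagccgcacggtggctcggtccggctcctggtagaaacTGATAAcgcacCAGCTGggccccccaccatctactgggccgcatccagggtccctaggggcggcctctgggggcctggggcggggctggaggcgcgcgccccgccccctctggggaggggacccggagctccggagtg
Pou4f3 was called 17.5 kb upstream of Tal1, in an intron of Stil, with fold 2.61 in iPou4f3, 4.16 in iG+P and 4.81 in iGPA, each with a Pou4f pattern and a Gfi1 core. The core was found at 9.33% to 10.1% of all summits in the Pou4f3 lists, and the Gfi1 list had no summit at this site. Pou4f3 was also called 203 bp from the Tal1 start in iP+A (2.83) and 337 bp from it in iG+P (2.52). No Atoh1 summit lay within 1 kb of a Tal1 start.

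Cebpa encodes the C/EBP factor of granulocytes, in a single exon of 2.63 kb on chromosome 7 (35904312 to 35906945, plus strand). It held 7 summits, and 5 of them lay within 1 kb of its start. Atoh1 was called there in iG+A (3.2, 257 bp into the gene), iP+A (2.8, 214 bp) and iGPA (3.08 at 33 bp and 3.2 at 708 bp), and Pou4f3 in iPou4f3 (2.5, 19 bp upstream). The local background at the iPou4f3 summit was 1.43 times the usual one. The other 2 summits were of iGPA Atoh1 at 30.9 kb (3.67) and of iG+P Pou4f3 at 41.4 kb (2.63), and the central 100 bp of the last was a perfect tandem repeat with a unit of 6 bp.

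The E-box was found at 44 of 55 Atoh1 summits, 80%, in 23 of 28 sites, and the whole Atoh1 lists gave 59.9% to 72.9%. The Pou4f pattern was found at 26 of 51 Pou4f3 summits, 51%, in 12 of 27 sites, and the whole Pou4f3 lists gave 40% to 54.5%. It varied between lines, from 11 of 14 in iGPA, beside 54.5% of the list, to 1 of 8 in iP+A, beside 40%. The median GC content of those 8 iP+A windows was 63.2%, where the list had 43.2%, and 4 of the 8 lay within 1 kb of an annotated start, where 20.9% of the list did. Summits of several lists at 1 site share the same sequence and are not independent.

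Other genes of the same pathways were counted from lists chosen with earlier results known. For that reason, and because the lists are short, no enrichment is read from their shares. Of 12 further blood factors that act with the regulators, 5 had a Gfi1 summit in their windows (41.7%, beside 23.2% of all protein-coding genes). These were Tcf3, an E protein gene (fold 3.96, in an intron of Mex3d), Cbfb, the partner subunit of Runx1 (4.62, intronic), Ikzf1 (5.31 with Atoh1, and 8.36 alone), Etv6 (3.96, intronic) and Nfe2. Both Ikzf1 summits were intergenic, 124 and 127 kb from the start of Ikzf1, and nearest to a start of Fignl1. Nfe2 had 3 summits, 2 shared with Atoh1 (5.5 and 3.19, at the start of Copz1) and 1 alone 47.0 kb upstream with fold 21.1. Of 13 myeloid and stem cell genes that are known or possible Gfi1 targets, 8 had a Gfi1 summit (61.5%, beside 23.2%). Those within 2 kb of the gene's own start were at Cebpb (fold 4.18, with Atoh1, and nearer to a start of Tmem189), Egr1 (4.84, with Atoh1 and Pou4f3), Id2 (5.28 with Pou4f3, and 4.18 with both) and Meis1 (3.74 and 4.18, alone). The others were at Csf1r (4.4), Csf3r (12.3), Egr2 (4.18) and Hoxa9 (4.12 and 4.18), all alone and nearer to a start of another gene. Of 10 genes for Gfi1, its paralogue and its corepressors, 4 had a summit (40%, beside 23.2%). These were Gfi1 itself (5.72, with Atoh1 and Pou4f3), Rcor2 (3.52), Ehmt2 (6.16) and Runx1t1 (5.06, with Atoh1). The Rcor2 summit lay 44.1 kb from the start of Rcor2, in an intron of Mark2. The Ehmt2 summit lay 48.3 kb upstream of Ehmt2 and 7 bp from a start of Skiv2l. The summit at Gfi1 lay in a non-coding exon, and the iGPA line carries a Gfi1 cassette, whose part in it was not tested.

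By the highest fold in each of the 9 lists, on the log2 scale, the genes most like Csf1 were 4930529M08Rik (Euclidean distance 0.63) and Gm10858 (0.646). For Runx1 they were Camk1g (1.25) and Hltf (1.35). For Gata1, whose window held Gfi1 alone, 4 genes lay within a distance of 0.0962, and the first by name were Apex1 and Pnp on chromosome 14.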

How the data were processed

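The data were peak lists from 17 ChIP and 12 input libraries, grouped by their titles. The iGPA lists were recognised by a name that refers to 3 factors. As the methods describe, the authors trimmed reads with Trimmomatic, aligned them to mm9 with Bowtie2, removed duplicates (Picard), reads of a mapping quality under 40 and blacklisted regions, and called peaks with MACS2 at a p of 0.05 on merged replicates against merged inputs. Versions were not given in the sources used here. The deposited fold enrichment was read as a ratio of ChIP pileup to local background, with the same constant added to both. The −log10 p values, also deposited, are the peak caller's at the summit. Its q-values were not used. The deposited summit lists hold a score column whose meaning is not stated, and it was not used. They leave out 14.1% to 35.5% of the called peaks by a filter that is not stated.

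Summits in gene windows were counted in Python 3.11.15 (numpy 2.4.6, pandas 2.3.3, scipy 1.17.1), with GENCODE vM1 on NCBIM37, where Spi1 was found under an older symbol through RefSeq synonyms. Windows of 300 bp around summits were shared when they overlapped by at least 1 bp. Pileups were derived by inverting fold, taken as pileup plus 1 over background plus 1, and −log10 p (tolerance 0.001). This gave a whole number for 98.5% to 99.9% of peaks. Intervals are exact 95% Clopper-Pearson intervals for counting error. Every Gfi1 summit in a window was named, with the strongest site of each gene, sites in 5 or more lists and summits within 1 kb of a start. The genes, lists and patterns were chosen with earlier results of these data known. Repeats with units of up to 60 bp, and the Tal1 sequence, were added after the values were seen. The functions for pileups, shared windows, joined sites, summit counts and the Gfi1 pattern were tested on simulated data first. The repeat search and the other patterns were not tested in this way. Read totals were not used here, and 1 gene of the lists is not reported here.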

Additional observations from a re-analysis of the deposited data

Results flagged for a closer look

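In the windows of the 8 regulators, 10 called peaks were left out of the authors' summit lists, and they stand outside the counts above. None was of Gfi1. Of these, 6 lay at Csf1: 5 at 63.9 to 64.2 kb from the gene's start, beside a start of Ahcyl1, in 5 different lists (fold 2.52 to 3.28), and the iG+A Atoh1 peak on the Gfi1 summit (3.34). The others were an iG+P Pou4f3 peak at Runx1 280 bp from an internal start (2.52), an iAtoh1 peak 667 bp upstream of Cebpa (2.81), an iG+A Atoh1 peak 41.1 kb from Cebpa (2.8), and the iP+A Atoh1 peak at Tal1 (3.76, −log10 p 11.3). The reason they were left out is not stated.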

How the results depend on the processing

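Of 68 alternative values of the main counts, 44 were within 1.5 times the reported one, and all those with all called peaks were. With a −log10 p of at least 10, no Gfi1 summit shared an Atoh1 window (0 against 1), no site was in 5 or more lists (0 against 3), and there were 10 Atoh1 summits in iGPA, 2 in iAtoh1, 4 in iP+A and 4 in iG+A, and 9 Pou4f3 summits in iGPA, 4 in iPou4f3, 3 in iG+P and 2 in iP+A. With 1000 bp windows 2 Gfi1 summits were shared with Atoh1, 1 with Pou4f3 and 1 was alone, and with 100 bp windows 1 site was in 5 or more lists. With a flank of 10 kb, 1 Gfi1 summit was alone, and there were 11 Atoh1 summits in iGPA, 9 in iG+A and 5 in iP+A, and 8 Pou4f3 summits in iG+P, 6 in iGPA, 5 in iPou4f3 and 3 in iP+A. With a flank of 100 kb, iP+A Atoh1 had 16 and iPou4f3 had 21. Against all annotated genes the background of genes with a Gfi1 summit was 20.1% instead of 23.2%. No paired analysis was possible because the lists were called on merged replicates and carry no replicate numbers. The depth, the antibody and the single Gfi1 library limit what a missing Gfi1 summit can mean.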
